A study of Mus musculus with 2 samples.

Results

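The genes described here encode hnRNP proteins, and they were followed through RIP-seq of Usp39, the sequencing of RNA that was pulled down with this protein. The cells were AML12, a line of normal mouse hepatocytes. The genes number 10 (Hnrnpu, Hnrnpa2b1, Hnrnph1, Hnrnpl, Hnrnpa1, Hnrnpf, Hnrnpm, Hnrnpdl, Hnrnpk and Hnrnpd), and the peaks described are the 181 that carry one of these symbols in the authors' peak list. They make up 0.503% of that list, which runs over the chromosomes in 2 passes of 17990 peaks each. The cells held a FLAG-Usp39 vector that doxycycline switches on, brought in by transfection according to the labels, while the methods describe AML12 cells made to express Usp39 stably by viral infection. Their medium contained dexamethasone. Doxycycline was given for 72 h, fixation in paraformaldehyde lasted 5 min, and the nuclear fraction was taken. The Input library had no antibody and the IP library was made with anti-FLAG magnetic beads, and both came from cells with the tagged protein. The series holds 1 library of each kind. The study's reporting form says that RIP-seq samples were prepared in several independent experiments, and whether these were pooled is not given, so no spread between replicates can be had. The peak list names no sample and gives no read counts, so the depth is unknown, no level of Input stands beside a peak, and no test between IP and Input was possible. Transcript abundance was not analysed here, and its part in any count of peaks was not tested. The p-values below were deposited with the peaks and serve only to rank them, and the sources used here do not say what the 2 passes are.

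Heterogeneous nuclear ribonucleoproteins coat nascent pre-mRNA, and by binding short sequence elements they steer the choice of splice sites, the export of the RNA and its decay. Many of them also act on their own transcripts: an intron is kept, or an exon with an early stop codon is included, and the product stays in the nucleus or is removed by nonsense-mediated decay (NMD). Usp39 belongs to the tri-snRNP, the particle that carries the U4, U5 and U6 small nuclear RNAs into the spliceosome. Peaks in these genes are described below by exon and intron, and by whether the annotation gives the same sequence to an NMD or retained-intron transcript.

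The sequences of the strongest short peaks are given first, because they show which stretch of each gene lay under a peak. For each gene the peak with the smallest p-value was taken among those of at most 300 bases that lay within the principal transcript (the main coding transcript of the annotation) and touched no UTR. Those of 6 genes are printed 5′ to 3′ on the strand of the gene, from the GRCm38 genome, which is the mm10 build of the files. Capitals mark bases that are exonic in the principal transcript, and lower case marks its introns.
Hnrnph1, chr11:50382501-50382600, plus strand, intron 6 and exon 7: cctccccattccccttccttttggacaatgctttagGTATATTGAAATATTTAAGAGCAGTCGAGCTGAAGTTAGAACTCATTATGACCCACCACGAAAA
Hnrnpa2b1, chr6:51466301-51466400, minus strand, exon 5 and intron 5: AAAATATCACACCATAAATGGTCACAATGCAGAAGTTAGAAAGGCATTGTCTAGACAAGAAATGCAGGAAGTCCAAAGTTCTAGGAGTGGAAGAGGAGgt
Hnrnpl, chr7:28813901-28814000, plus strand, exon 4: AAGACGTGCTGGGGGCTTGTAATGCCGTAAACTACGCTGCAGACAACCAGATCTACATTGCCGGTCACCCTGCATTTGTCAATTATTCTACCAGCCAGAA
Hnrnpf, chr6:117924101-117924200, plus strand, exon 3: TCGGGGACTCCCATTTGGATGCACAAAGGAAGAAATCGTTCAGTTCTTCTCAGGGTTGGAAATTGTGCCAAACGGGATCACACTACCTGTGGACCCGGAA
Hnrnpu, chr1:178330601-178330700, minus strand, exon 11: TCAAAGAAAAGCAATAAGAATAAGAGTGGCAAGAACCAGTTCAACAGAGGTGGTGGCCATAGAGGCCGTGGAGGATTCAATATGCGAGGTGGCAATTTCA
Hnrnpm, chr17:33650101-33650200, minus strand, exon 14: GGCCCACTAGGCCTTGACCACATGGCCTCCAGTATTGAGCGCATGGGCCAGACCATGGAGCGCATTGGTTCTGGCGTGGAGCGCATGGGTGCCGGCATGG
Of the printed peaks, 2 cross an exon boundary: that of Hnrnph1 holds 64 exonic bases and the end of the intron before them, and that of Hnrnpa2b1 holds the first bases of intron 5. The other 4 lie wholly in coding exons. A further peak, of Hnrnpl, is printed because intron 7 of that gene held more peaks than any other intron of the 10 genes, and it was chosen after its values were seen. Its capitals mark bases that are exonic in an annotated retained-intron transcript, which here are all 100.
Hnrnpl, chr7:28818201-28818300, plus strand, intron 7: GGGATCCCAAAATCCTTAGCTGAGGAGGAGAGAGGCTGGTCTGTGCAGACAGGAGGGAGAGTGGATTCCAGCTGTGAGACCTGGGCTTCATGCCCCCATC

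All 10 genes had at least 3 named peaks, while 20.4% of 21951 protein-coding genes had at least 1. The genes were chosen with their peaks known, so nothing is read from this. Hnrnpu, whose product (scaffold attachment factor A) binds chromatin-associated RNA, had 38. Hnrnpa2b1, an A/B-type protein that also sorts RNAs for transport, and Hnrnph1, a reader of runs of G, had 28 each. Hnrnpl, which binds CA-rich RNA, had 20, and Hnrnpa1, a classical repressor of exon inclusion, had 17. Hnrnpf, the close relative of Hnrnph1, and Hnrnpm, which binds GU-rich RNA, had 16 each. Hnrnpdl had 9, Hnrnpk, a KH-domain protein that binds runs of C, had 6, and Hnrnpd (AUF1), which binds AU-rich elements, had 3. The median was 16.5 peaks per gene, against 3 over all genes of the authors' gene table. In that table Hnrnpu ranked 143, Hnrnpa2b1 and Hnrnph1 ranked 213, and Hnrnpd, which shares its number of peaks with 488 genes in all, ranked 2097. A count of 10 or more was reached by 7 of the 10 genes, and by 3.56% of protein-coding genes. Counting peaks within the gene per kb of its length changed the order: Hnrnpa2b1 had 3.12 peaks per kb, Hnrnph1 2.94, Hnrnpa1 2.72, Hnrnpu 2.28, Hnrnpdl 1.48 and Hnrnpl 1.46. Hnrnpf (0.632), Hnrnpk (0.492), Hnrnpm (0.345) and Hnrnpd (0.130) were sparse, and the longest of the genes, Hnrnpm, spans 40.6 kb. In Hnrnpa2b1 and Hnrnph1 peaks covered 41.3% and 40.9% of the gene, and in Hnrnpa1 38.3%, while in Hnrnpm they covered 3.69% and in Hnrnpd 1.304%.

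**Figure D1:**
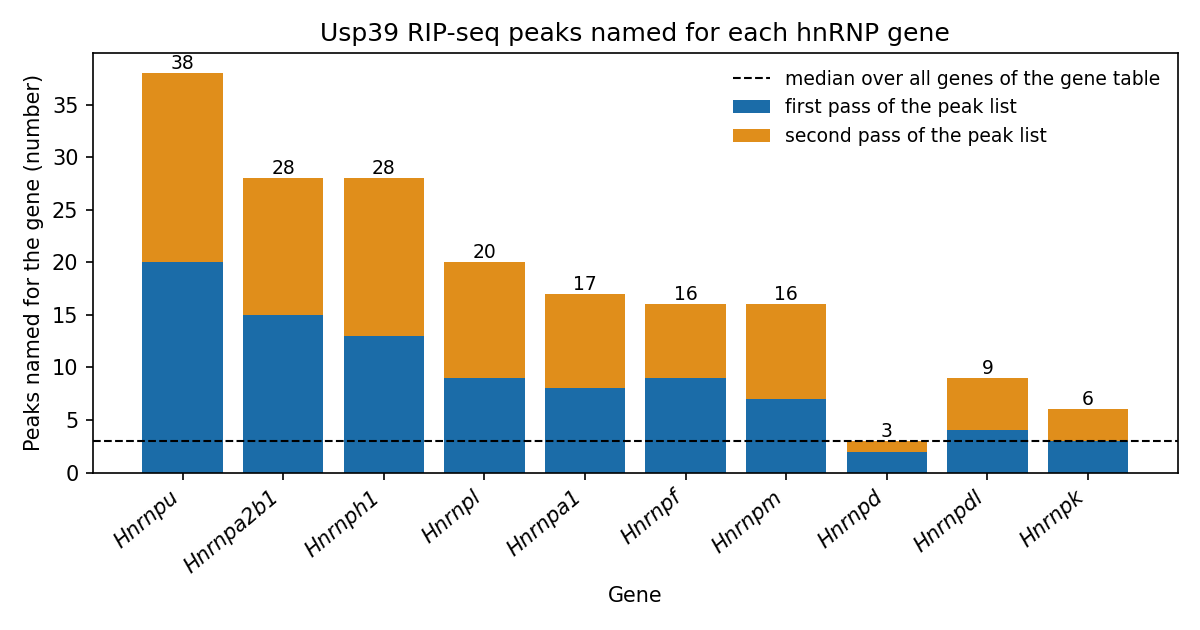
Number of peaks named for each hnRNP gene (vertical axis), split into the first and second pass of the authors' list, with a dashed line at the median of 3 over all genes of the table. Hnrnpu stands highest with 38 peaks and Hnrnpd lowest with 3, and both passes add about as many peaks to each gene.

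Both passes of the list gave nearly the same number of peaks, 90 and 91. Of the 90 peaks of the first pass, 51 (56.7%) overlapped a peak of the second, against 32.7% over the whole list. The share was highest in Hnrnph1 (9 of 13). It was 2 of 7 in Hnrnpm and 1 of 4 in Hnrnpdl, and no peak of Hnrnpd was met by a peak of the other pass. Only 12 of the intervals were the same in both passes. A partner within 500 bases was found for 78 of the 90 peaks, and it lay a median of 50 bases towards higher coordinates, against 100 bases over the whole list. Joined where they overlapped or lay within 100 bases of each other, the 181 peaks made 75 sites, of which 17 lay in Hnrnpu, 11 each in Hnrnph1 and Hnrnpm, 9 in Hnrnpa2b1, 7 in Hnrnpl, 6 in Hnrnpa1, 5 in Hnrnpdl and 3 each in Hnrnpf, Hnrnpd and Hnrnpk. Since many of the peaks overlap, 181 is not a number of independent places, and the intervals given for shares below cover counting error only and are too narrow. Whether overlapping peaks share reads is not known.

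Peaks of these genes were somewhat stronger and wider than those of the list. Of the 181 peaks 42 had p at or under 1e-05 (23.2%, exact binomial 95% interval 17.3 to 30.04%), against 14.4% of all peaks. The median of −log10 p was 3.94, against 3.68. Hnrnpa2b1 gave 11 of the 42 strong peaks, Hnrnph1 and Hnrnpl 7 each, Hnrnpu 6 and Hnrnpa1 5. Hnrnpk had 3 strong peaks among its 6, and Hnrnpd and Hnrnpdl had none. Medians within a gene ran from 3.42 in Hnrnpm to 4.70 in Hnrnpa2b1. The smallest p-value of the whole list, 5.24e-15, is shared by 385 peaks, and 1 of them lay in Hnrnpa1. The largest p-value, 0.000736, was held by 33 peaks of these genes (18.2%, against 25.8% of the list). Peaks of 300 bases or more made up 17.1% (11.9 to 23.4%), against 8.05%, and the widest, of 1000 bases, lay in Hnrnpl.

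**Figure D2:**
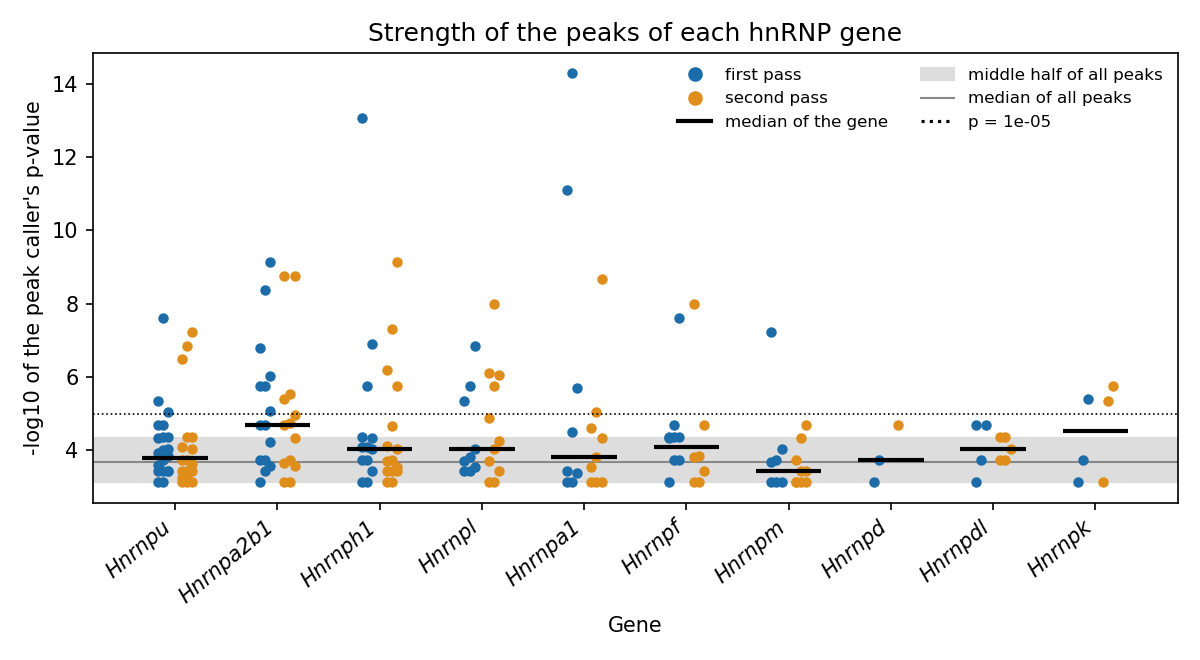
−log10 of the authors' p-value (vertical axis) for every peak of each gene, coloured by pass, with the gene's median as a black bar, and the band between the quartiles of all peaks of the list in grey around their median of 3.68. The dotted line marks 1e-05. Hnrnpa2b1 has the highest median (4.70), and the highest single points lie in Hnrnpa1 and Hnrnph1.

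Nearly all of these peaks lay in the gene they were named for. This held for 179 of 181 (98.9%, 96.1 to 99.9%), against 74.8% of the list. The exceptions were 2 peaks named for Hnrnpm, which lay 4741 and 4841 bases upstream of its 5′ end, in the neighbouring gene March2. In the deposited location classes, 88 peaks (48.6%, 41.1 to 56.1%) were in exons, against 24.01% of the list, and 23 (12.7%, 8.23 to 18.5%) in introns, against 41.5%. The 3′ UTR class held 49 (27.1%, 20.7 to 34.2%), against 19.5%, but among peaks at or under 1e-05 it held 19.0%, against 19.1%. None was distal intergenic, which with 181 peaks allows a share of up to 1.66% by the limit of 3 counts and 2.02% by the exact interval.

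The deposited exon class, however, counts the exons of every transcript. The 3′ UTR class likewise is not confined to the last exon of the principal transcript. Its 8 peaks of Hnrnpdl lay in intron 7 or touched exons 5 or 6, and its 2 peaks of Hnrnpm lay in March2. How many such peaks the list holds was not counted. Of 84 exon-class peaks within the principal transcripts, 36 (42.9%, 32.1 to 54.1%) touched no exon of that transcript, against 27.5% of the list. When each peak was placed on the principal transcript, 97 of 169 (57.4%) touched one of its exons, against 43.1% of the list. A further 51 (30.2%, 23.4 to 37.7%) lay in its introns but on exonic sequence of another annotated transcript, against 8.20%. Only 21 (12.4%, 7.86 to 18.4%) lay in introns with no annotated exon, against 48.7%. These shares were not particular to the 10 genes. On exons of another transcript lay 35.7% of such peaks of the other hnRNP genes, 29.1% for SR protein genes and 23.2% for snRNP protein genes. In introns with no annotated exon lay 22.6%, 29.7% and 15.9%. The 10 genes have more annotated transcripts than most, with a median of 12, against 6 over the 3524 protein-coding genes with a peak in the body. They are also shorter (median 13.0 kb, against 30.9 kb). The part of annotation density and gene length in these shares was not tested.

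**Figure D3:**
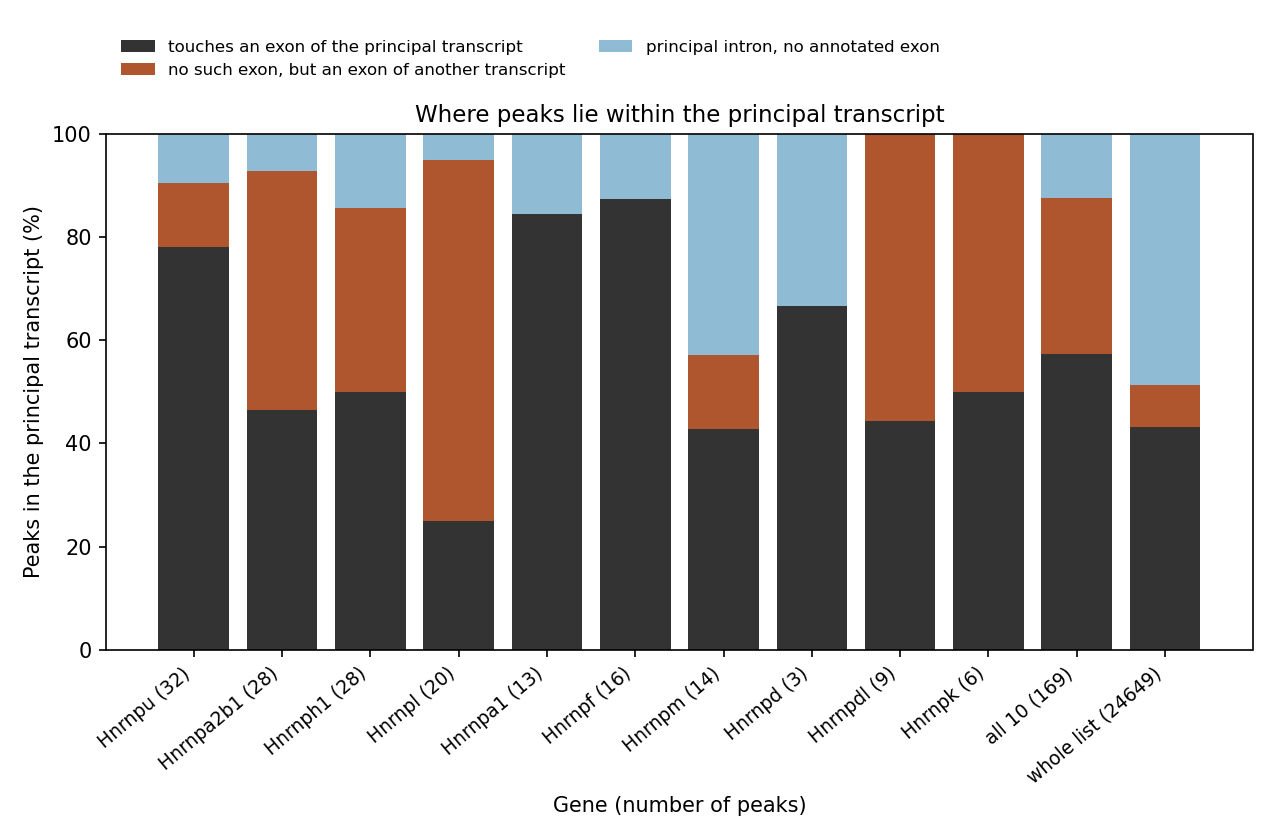
Share of peaks within the principal transcript (vertical axis, percent) that touch one of its exons, touch only an exon of another transcript, or touch no annotated exon, for each gene, for all 10 and for the whole list, with the number of peaks in brackets. The middle class reaches 30.2% over the 10 genes and 8.20% over the list, and it is empty in Hnrnpa1, Hnrnpf and Hnrnpd.

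Sequence was next marked that is exonic in an NMD or retained-intron transcript and lies in introns of the principal transcript. It was touched by 44 of 179 peaks (24.6%, 18.5 to 31.6%), against 8.22% of peaks in protein-coding genes. Such sequence makes up 9.58% of the length of the 10 genes, and 2.36% of the length of all protein-coding genes with a peak. Retained-intron transcripts accounted for 42 of the peaks and NMD transcripts for 4. Some of this sequence, as in introns 1 and 10 of Hnrnpa2b1, is also exonic in other coding transcripts. The share rested on a pair of genes: 18 of the 44 peaks were in Hnrnpa2b1 and 15 in Hnrnpl, and without these genes, a choice made after the values were seen, the share was 8.40%. These genes had 28 and 20 peaks, and such sequence makes up 52.2% of the length of Hnrnpa2b1 and 22.8% of that of Hnrnpl. In the other genes it makes up at most 18.3%, in Hnrnpk. The part of this length in the share was not tested. Among the 7 genes that have such sequence at all, 44 of 118 peaks (37.3%) touched it, against 10.9% in all genes that have it. Hnrnph1, Hnrnpa1 and Hnrnpf have none in their principal introns, and sequence beyond the ends of the principal transcript was not counted for any gene. The same share was 36.7% for the peaks of the other hnRNP genes, 32.4% for those of SR protein genes and 26.1% for those of snRNP protein genes, so it was not particular to the 10.

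Peaks were counted intron by intron, with both passes together, so 4 peaks need not be 4 places. Of 108 introns, 25 (23.1%, 15.6 to 32.2%) held a named peak that touched no exon, against 8.23% of introns in all genes with a peak in the body, and 6 (5.56%, 2.07 to 11.7%) held 4 or more, against 1.88%. Counted by position, those 6 introns held 41 of the 72 peaks that lay in introns and touched no exon (56.9%), on 14.8% of the intron length. Since they were picked by their number of peaks, a high share follows from the choice. No like share was computed for the list, so nothing is read from it. The 6 introns were intron 7 of Hnrnpl (13 peaks), introns 1 and 10 of Hnrnpa2b1 (8 and 4), intron 3 of Hnrnpu (7), intron 7 of Hnrnpdl (5) and intron 2 of Hnrnpm (4). Their median length was 2115 bases, against 7204 bases over the 853 introns of the list with 4 or more peaks. Exons were touched in 45 of 118 cases (38.1%, 29.4 to 47.5%), against 10.8%. The 10 genes were chosen with their peaks known, and had a median of 16.5 peaks, against 3 over the authors' gene table. Nothing is therefore read from their higher shares of introns and exons with peaks.

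Among the A/B-type genes, Hnrnpa2b1 (12 exons, 13 annotated transcripts, 5 of them with retained introns) lies at chr6:51460932-51469894 on the minus strand, and its peaks touched 7 exons (1, 3 to 6, 8 and 12) and lay over long introns. Its strongest peak, 7.16e-10 in the first pass, lay on exon 5, and the second pass gave the same interval at 1.75e-09; its sequence is printed above. Exon 3 held a peak at 4.24e-09, exon 4 one at 3.99e-06, and the last exon, 12, one at 1.75e-09. Intron 1, of 2375 bases, lies entirely on retained-intron sequence, and its 8 peaks that touched no exon had p-values down to 1.75e-06. Intron 10, of 1355 bases, is likewise fully exonic in such transcripts. Peaks covered 66.4% of it, and 3 of its 4 peaks passed 1e-05, the strongest at 1.63e-07. Peaks covered 42.3% of its intron length and 41.6% of its exon length.

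Hnrnpa1 (chr15:103240432-103246692, plus strand, 11 exons) had 11 of its 13 peaks in the principal transcript on exons. The annotation gives it 2 NMD transcripts, but no sequence of its principal introns is exonic in an NMD or retained-intron transcript. Exon 4 held a peak at 7.77e-12 in the first pass, and the second pass gave a peak of 200 bases there at 2.14e-09. The last exon, 11, held 6 peaks over 85.7% of its length, among them the strongest of the 10 genes (5.24e-15). That peak and those of exon 4 have copies without a mismatch elsewhere in the genome, described below. A further 4 peaks lay beyond the end of the principal transcript, in the 3′ UTR class, 1 of them at 8.98e-06. Exons were covered over 56.3% of their length and introns over 18.3%.

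Hnrnpdl (chr5:100033577-100039664) and Hnrnpd (chr5:99955935-99978938), paralogs on the minus strand of chromosome 5, had no peak at or under 1e-05. Hnrnpdl had 5 of its 9 peaks in intron 7, each of 100 bases, of which none touched an exon of the principal transcript and all lay on exons of other transcripts. The exons in this intron belong to coding, NMD, retained-intron and processed transcripts, and 2 of the 5 peaks touched NMD sequence. Its smallest p-value was 1.99e-05. Hnrnpd had a peak on exon 1 (0.000188), one on exon 7 (1.99e-05) and one in intron 8 (0.000736), each in 1 pass alone.

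Hnrnph1 and Hnrnpf encode closely related readers of G runs. In Hnrnph1 (chr11:50376990-50386528, plus strand, 15 exons) exon 7 held the strongest peak, 8.46e-14, printed above with the end of intron 6. Intron 6, of 939 bases, was covered over 68.1% of its length, and its peaks that touched no exon were at 7.16e-10, 1.28e-07 and 4.79e-08. Intron 5, of 1494 bases, was covered over 57.4%, with a smallest p-value of 6.31e-07. Exon 5 held 1 interval in both passes, at 1.75e-06 in each. The annotation gives Hnrnph1 no NMD or retained-intron transcript, but 15 of its 18 transcripts are of the processed kind, without a coding sequence, and 10 of its 28 peaks lay in principal introns on their or other transcripts' exons.

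**Figure D4:**
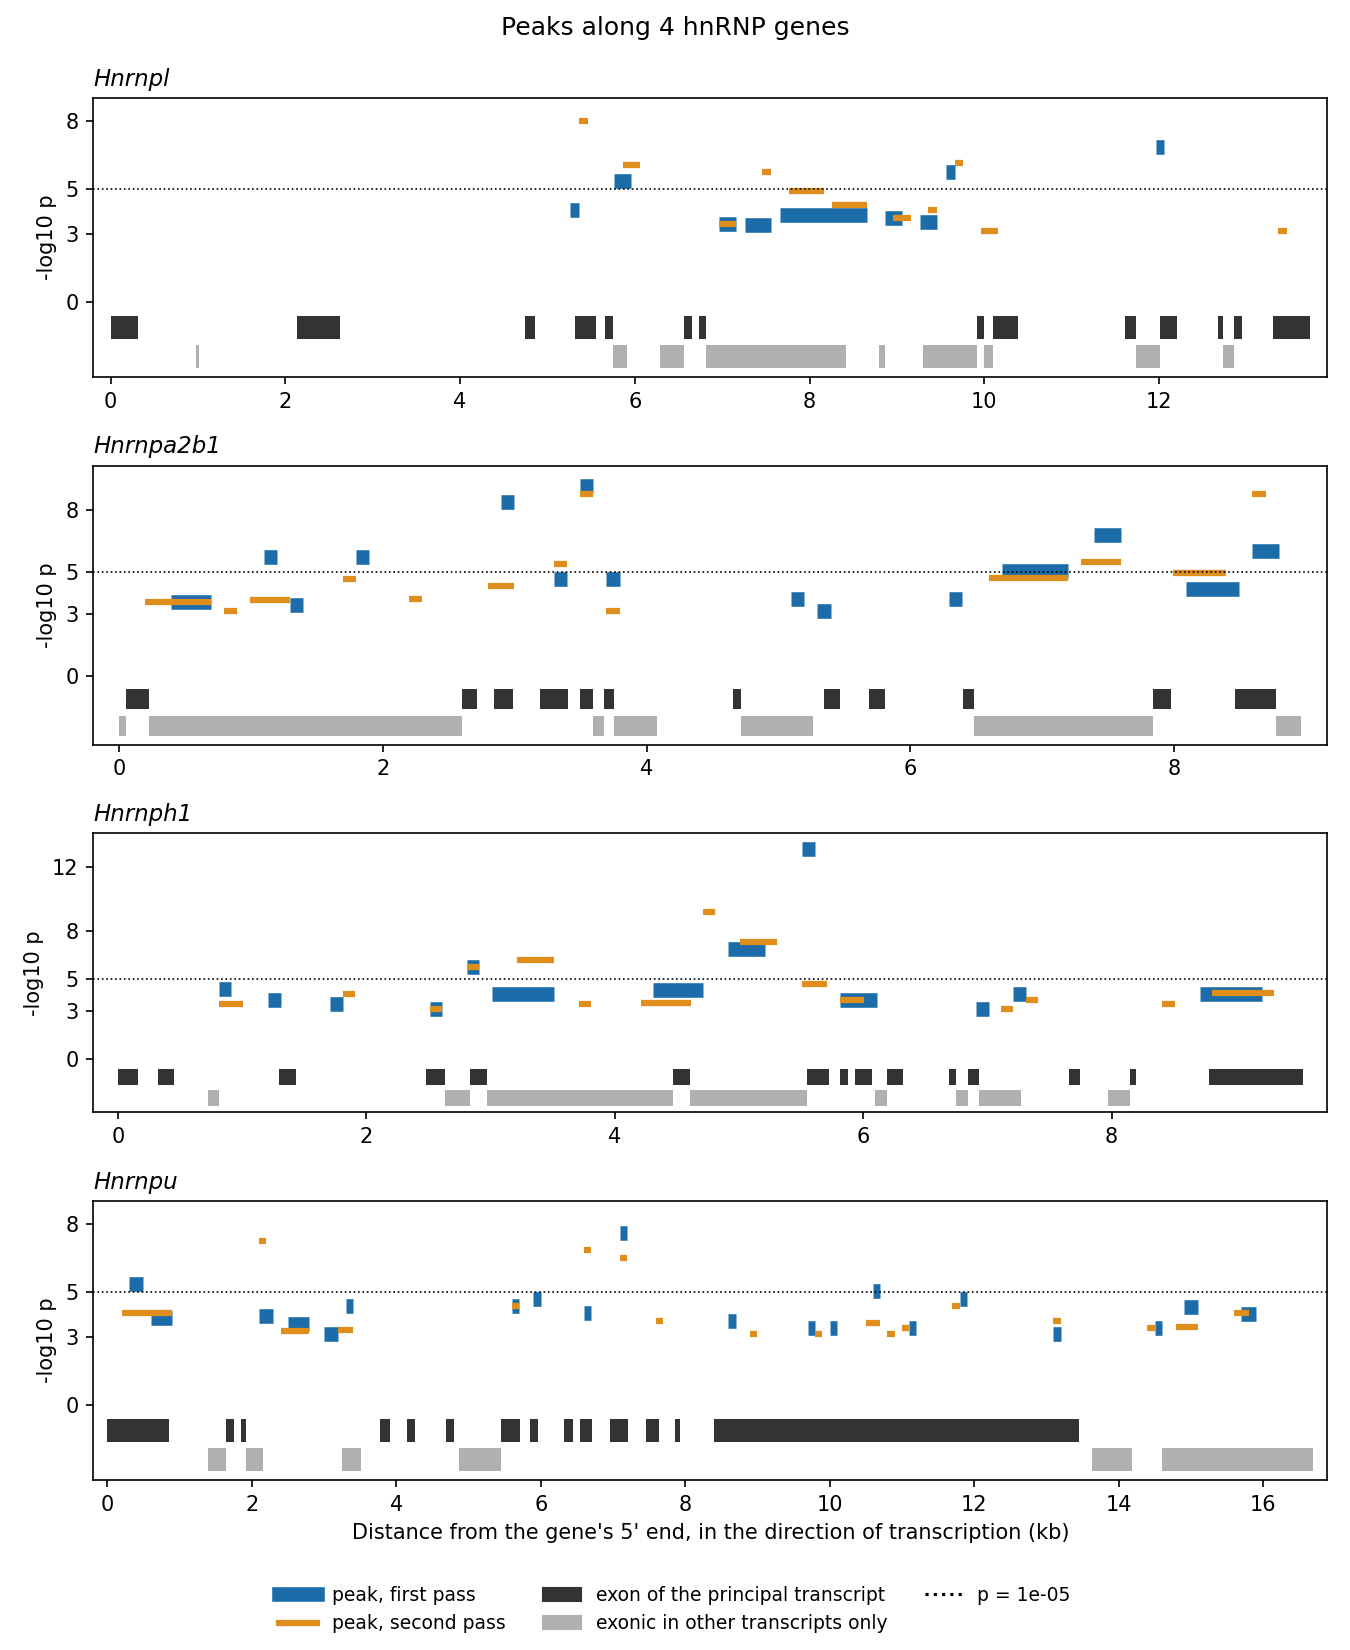
Peaks along Hnrnpl, Hnrnpa2b1, Hnrnph1 and Hnrnpu, with distance from the 5′ end of the gene in kb on the horizontal axis and −log10 of the authors' p-value on the vertical axis. Thick bars are peaks of the first pass and thin bars those of the second, dark boxes are exons of the principal transcript, grey boxes are sequence that is exonic in other transcripts only, and the dotted line marks 1e-05. Of the 20 peaks of Hnrnpl 13 lie in intron 7, mostly over grey stretches, and 14 of the 38 peaks of Hnrnpu lie on its last exon.

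In Hnrnpf (chr6:117900324-117925622, plus strand, 3 exons) 14 of 16 peaks touched exons, 13 of them the last exon, 3, which holds the coding sequence and was covered over 72.9% of its 1912 bases. The strongest were at 1.03e-08 (second pass, printed above) and 2.47e-08 (first pass). Intron 1, of 10261 bases, held only 2 peaks. These values cannot be assigned to Hnrnpf with certainty, because 12 of its 15 distinct intervals had at least 1 near-identical copy elsewhere in the genome (at least 90% identity over at least 80% of the peak) and 8 had a copy without a mismatch. The printed interval had 7 copies. The list also held 8 peaks at such copies, of both passes, in the processed pseudogenes Gm6430, Gm7446 and Gm12435 on chromosomes 1, 13 and 4. They were named for Slco6b1, B3galnt2 and Invs, and the strongest was at 1.39e-07. The sources used here do not say how reads with several matches were placed.

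Copies were next most common in Hnrnpa1, where 8 of 17 intervals had one, with up to 19 copies each, among them the strongest peaks, those of exon 4 (16 copies) and exon 11 (12 copies). In 4 intervals, these strongest ones included, a copy had no mismatch, so their values cannot be assigned with certainty to Hnrnpa1 either. At its copies the list held 1 peak, in the pseudogene Gm10052 on chromosome 9, named for Slc6a20a. Hnrnpa2b1 had copies of 5 of 25 intervals, the printed one with 3 of at most 94.8% identity, Hnrnph1 of 2 of 26, Hnrnpdl of 2 of 8 and Hnrnpk of 1 of 6, and Hnrnpu, Hnrnpl, Hnrnpm and Hnrnpd of none. In total 28 of 86 intervals that touched a principal exon had a copy (32.6%), and 2 of 81 that touched none (2.47%).

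In Hnrnpl (chr7:28808541-28822266, plus strand, 14 exons) 5 of 20 peaks touched a principal exon, the lowest share among the 10 genes. Intron 7, of 3108 bases, held 13 peaks, 6 of the first pass and 7 of the second, which together covered 70.8% of it. Of 45252 introns in genes with a peak in the body, 177 (0.391%) held as many or more. Of these 13 peaks 12 touched exonic sequence of retained-intron transcripts, which take up 2305 bases of the intron, and 1 also touched the annotated NMD exon of 70 bases. The strongest were at 7.61e-07 (second pass, printed above, 161 bases from the splice site of exon 8), 1.75e-06 (first pass) and 1.75e-06 (second pass, nearer exon 7). Intron 5, of 811 bases, held a further peak of each pass, at 4.50e-06 and 8.77e-07. On exons the strongest was that of exon 4 (1.03e-08), followed by one at exon 11 (1.39e-07). Exons were covered over 14.6% of their length and introns over 24.5%.

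Hnrnpu (chr1:178321108-178337797, minus strand, 14 exons) had the most peaks, and 25 of its 38 were a single bin of 100 bases wide. The last exon, 14, of 5065 bases, held 14 peaks, 7 of each pass. Only 1 of these passed 1e-05 (8.98e-06). Stronger peaks lay in coding exons, at exon 11 (2.47e-08, first pass, printed above, and 3.26e-07 in the same interval of the second pass) and exon 10 (1.39e-07). Exon 1 held 1 strong peak (4.49e-06). Intron 3, of 1855 bases, held 7 peaks over 53.9% of its length, with one at 5.88e-08 on retained-intron sequence, the second strongest of the gene. A further 6 peaks lay beyond the end of the principal transcript, within the gene as annotated, and 2 of these also lay in Cox20, which overlaps the end of Hnrnpu on the opposite strand. By position 3 peaks named for Cox20 lay within Hnrnpu.

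In Hnrnpm (chr17:33646233-33686860, minus strand, 16 exons) exon 14, of 803 bases, held 5 peaks over 74.7% of its length, including its 1 strong peak (5.88e-08, printed above). The 9 peaks elsewhere in the gene had p-values of 1.99e-05 or more, and 6 of them touched no annotated exon. Hnrnpk (chr13:58391142-58403343, minus strand, 16 exons, 34 annotated transcripts) had peaks on exon 10 (4.52e-06), at exon 5 (3.99e-06) and in intron 4 beside it (1.75e-06). By position 3 more peaks lay in Hnrnpk, on exons 16 and 15, the strongest at 8.98e-06. They were named for the microRNA gene Mir7-1, which lies in Hnrnpk, but none of them overlapped Mir7-1. In Hnrnpa1 1 peak was named for Nfe2, a neighbour that does not hold it. Counted by position the 10 genes held 186 peaks.

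The nearest edge was within 100 bases of a splice site of the principal transcript in 68 of 179 peaks (38.0%, 30.9 to 45.5%), against 23.2% of the list. The sets differ: the 179 include peaks beyond the principal transcript, while the list value covers only peaks within principal transcripts. Of the 68 peaks Hnrnph1 had 15, Hnrnpa2b1 13, Hnrnpu 10 and Hnrnpa1 8, and Hnrnpf, with few introns, had 2. Principal exons take up 23.4% of the length of these transcripts, and the part of their compact structure in this share was not tested.

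For each of the 6 short motifs searched, the share over the list lay within the counting interval of these peaks. GGCCAC, a hexamer that the study's motif search brought up, was found on the transcript strand in 10 of 179 peaks (5.59%, 2.71 to 10.03%), against 4.86% of peaks inside their named gene. GCCATA, the other, was in 5 (2.79%, 0.913 to 6.40%), against 1.99%, and all 5 peaks lay in Hnrnpu. The element of Hnrnpa1, TAGGG, was in 9.50% against 8.89%, GGGGG in 11.2% against 9.89%, and CACACA, of the kind that Hnrnpl binds, in 3.35% against 5.74%. TCTTT, of the kind that polypyrimidine tract proteins bind, was in 22.9% (17.0 to 29.8%), against 17.3%. The wider peaks hold more letters, and among peaks of 1 bin TCTTT was in 14.0% against 13.5%. The median share of G and C was 42.5%, against 49% over the list, and medians ran from 35% in Hnrnpd to 51% in Hnrnpl. Of the peaks printed above by rule, that of Hnrnpu holds GCCATA and that of Hnrnpl in exon 4 GGGGG. A match is a description of the letters, not of a binding site.

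The library kit is not stated to keep strand, so reads of an overlapping gene on the other strand cannot be told apart. Few of the peaks, 6 of the 181, also lay in another annotated gene. On the opposite strand were Cox20 with 2, the antisense gene Gm17092 over Hnrnpd with 1 and the locus 4933440N22Rik over Hnrnpf with 1. The other 2 lay in March2, which is on the same strand as Hnrnpm.

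Other genes of the hnRNP family, listed with earlier results known, followed. Of 19 other genes, 14 (73.7%, 48.8 to 90.9%) had a named peak, against 20.4% of protein-coding genes, with a median of 3 over all 19. The C-binding Pcbp2 had 20, Hnrnpul2 18, and Hnrnpa3 and Hnrnpul1 12 each. Of the 12 named for Hnrnpa3 and for Hnrnpul1, 5 and 2 lay in the gene itself. Hnrnpc and Ptbp2 had 6 each, Hnrnpa0 and Ptbp1 4 each, Hnrnpab and Hnrnph2 3 each, Hnrnph3 and Ptbp3 2 each and Raly 1. No peak was named for Hnrnpll, Hnrnpr, Syncrip, Pcbp1 or Rbmx, but by position 5 peaks lay in Pcbp1 and 1 in Rbmx. Of the 112 peaks named for the 19 genes 90 lay inside them, and strong peaks made up 6.67% of these 90. The like share was 26.4% within SR protein genes and 23.5% within the 10 genes. Peaks outside their named gene are left out here, unlike in the strong share given above for the whole list. Strong peaks of the other hnRNP genes are thereby lost: Hnrnpul1 had 4 among its 12 named peaks, of which only 2 lay in the gene. SR protein genes had a named peak in 11 of 13 cases, U1, U2 and tri-snRNP protein genes in 8 of 25, and genes of hepatocyte products in 2 of 9. Those 2 were keratin genes, and none of the 7 genes of secreted liver proteins had one, Alb (albumin) included, which does not show that their RNA was absent.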

How the data were processed

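The authors trimmed reads with Trim Galore 0.6.1, checked them with FastQC 0.11.9, removed ribosomal RNA with Bowtie 1.2.3, mapped the rest to mm10 with HISAT2 and ran Piranha, in bins of 100 bases, keeping peaks under 0.001. The sources used here do not give the role of Input in the calls, HISAT2's version for these reads (one is given for RNA-seq only) or the handling of multiple matches. The deposited p-value of each peak was used as given, and other deposited columns used were width, location class and peaks per gene. Depth is unknown.

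Peaks were matched by gene identifier to GENCODE M21 (GRCm38), with an overlap of at least 1 base; 633 peaks were named for a gene that was not matched. The principal transcript was the coding transcript with the best APPRIS rank, then the longest coding sequence. Sequences came from the GRCm38 genome (pysam 0.24.0), copies from BLAST 2.17.0, and exact binomial intervals (95%) from SciPy 1.17.1. No test was possible with 1 library per group. Placement was tested on simulated peaks, of which 200 of 200 were recovered. The genes and lists were chosen with earlier results of these data known; all 10 genes are named, the genes of the wider family by their peaks, and genes that share peaks with them. The values of 1 family gene and 1 peak sequence that met the rule for printing are not reported here. Each printed sequence but the intronic one of Hnrnpl is the peak with the smallest p-value per gene under the limits given with it. Alternatives were stricter p-values, each pass, joined peaks, assignment by position, equal weight per gene and other windows.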

Additional observations from a re-analysis of the deposited data

How the results depend on the processing

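With 1 Input and 1 IP library and a list that names neither, leaving out a library was not possible. No paired analysis was possible because each group has 1 library and the list has no sample columns. Of 75 alternative values, 55 stayed within the interval of the value given, or within 1.5 times a count, and 20 moved. The 181 peaks became 90 and 91 in the passes alone, 75 when joined, 42 at a p-value of 1e-05 or less, and a median of 16.5 per gene. At 1e-05 or less 100% lay in their own gene, the exon share was 69.0% (33.5% of the list), the intron share 0% of 42 peaks, which by the limit of 3 counts allows up to 7.14% (25.05% of the list), the 3′ UTR share 19.0% (19.1%), the NMD or retained-intron share 38.1% (11.1%) and the GGCCAC share 0% of 42, with the same upper limit (6.18%). The excess of the 3′ UTR class over the list thus ended there. With equal weight per gene the exon share was 39.4%. Joined peaks gave a strong share of 33.3% and a splice-site share of 52.7%, since joined sites keep their smallest p-value and are wider, and an intron share of 18.7%, of which the cause was not tested. The strong share was 49.7% at a limit of 1e-04. The splice-site share was 49.2% with a window of 200 bases (32.4% of the list) and 46.9% with the sites of any transcript (26.5%). These list values again cover only peaks within principal transcripts. GGCCAC on either strand was in 10.1% of peaks (9.31%). Leaving out Hnrnpa2b1 and Hnrnpl, added after the data were seen, took the NMD or retained-intron share to 8.40%, while leaving out Hnrnpu moved nothing beyond its interval. The depth is unknown, so no limit from it can be given.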
